A study of Mus musculus with 12 samples.

Results

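The oocyte and zona pellucida genes described here are Zp1, Zp2, Zp3, Omt2b, Oosp1, Nlrp5, Gdf9 and Bmp15, 8 genes known for expression in the egg. They were followed in medullary thymic epithelial cells (mTECs) of mice, the thymic stromal cells that transcribe many genes of other tissues and present their products to developing T cells. Each gene was taken from probe sets whose only gene symbol was its own, the brightest being used where there were several. All 8 genes were found, each with 1 probe set, among 22154 genes measured. RNA was hybridised to 12 single-colour Affymetrix mouse gene arrays, and levels are given as log2 intensity.

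The mice were C57BL/6, aged 4 weeks, of genotype Aire+/+, Aire-/-, Brg1+/+ or Brg1-/-. Aire is a transcriptional regulator of peripheral tissue genes in mTECs, and Brg1, encoded by Smarca4, is the motor of SWI/SNF, a complex that remodels chromatin. Which part of either gene was deleted, which driver removed Brg1 and whether animals were pooled are not given in the sources used here. Thymic cells lacking CD45 and carrying Epcam, UEA ligands and little Ly51 were sorted by MHC class II into a high fraction, mTEChi, and a low fraction, mTEClo. Each of the 4 mTEChi groups had 2 arrays, numbered 1 and 2, and each of the 4 mTEClo groups had 1. The labels do not say that arrays came from separate animals, so each p-value speaks of the spread among these arrays alone, and that spread may be technical.

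In the ovary, Zp1, Zp2 and Zp3 encode glycoproteins of the zona pellucida, the coat around the growing oocyte to which sperm bind. Gdf9 and Bmp15 are growth factors of the transforming growth factor beta family that the oocyte secretes to the surrounding granulosa cells. Nlrp5, also called Mater, is a maternal protein of the egg cytoplasm that the early embryo needs, and a known target of autoimmunity against the ovary. Oosp1 encodes an oocyte-secreted protein, and Omt2b is named as an oocyte maturation transcript. In mTECs such genes count among the tissue-restricted self-antigens, and mice without Aire are known to develop autoimmunity against the ovary. In oocytes the zona genes are driven by FIGLA, a basic helix-loop-helix factor that binds E-boxes.

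The RefSeq promoter windows of assembly GRCm38.p6 run from 250 bases before to 50 bases after a gene start and held 5 of the 8 genes: Zp3, Omt2b, Oosp1, Nlrp5 and Bmp15. The 250 bases before the start are shown for the 3 genes whose level fell in arrays labelled Aire-/-, Zp3, Omt2b and Oosp1, and for Bmp15, which stayed dim on every array. They are printed 5′ to 3′ on the strand of the gene, with matches to the E-box CANNTG in capitals. The Zp3 stretch is chr5:135979855-135980104 on the plus strand, that of Omt2b is chr9:78327780-78328029 on the plus strand, that of Oosp1 is chr19:11691052-11691301 on the minus strand and that of Bmp15 is chrX:6320725-6320974 on the minus strand.
Zp3: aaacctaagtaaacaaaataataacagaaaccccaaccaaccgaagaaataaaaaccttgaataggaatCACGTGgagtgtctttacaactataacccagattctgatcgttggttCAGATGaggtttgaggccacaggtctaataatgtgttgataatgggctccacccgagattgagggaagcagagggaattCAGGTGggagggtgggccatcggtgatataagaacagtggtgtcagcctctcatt
Omt2b: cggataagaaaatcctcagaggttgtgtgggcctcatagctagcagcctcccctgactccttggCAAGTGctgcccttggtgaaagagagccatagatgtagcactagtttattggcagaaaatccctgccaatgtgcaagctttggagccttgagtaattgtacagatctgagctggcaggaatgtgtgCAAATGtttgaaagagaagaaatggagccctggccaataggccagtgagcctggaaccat
Oosp1: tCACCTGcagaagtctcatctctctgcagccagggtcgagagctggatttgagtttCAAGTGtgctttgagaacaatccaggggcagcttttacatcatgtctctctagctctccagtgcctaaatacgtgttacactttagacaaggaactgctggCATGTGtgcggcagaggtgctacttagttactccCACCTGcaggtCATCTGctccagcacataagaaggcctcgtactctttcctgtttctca
Bmp15: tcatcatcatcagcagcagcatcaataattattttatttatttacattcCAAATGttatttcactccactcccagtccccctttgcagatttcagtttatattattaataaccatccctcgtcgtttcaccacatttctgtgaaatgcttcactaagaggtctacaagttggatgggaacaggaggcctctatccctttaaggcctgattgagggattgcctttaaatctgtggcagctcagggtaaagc
Over the whole 300-base windows, CANNTG, which reads the same on both strands, matched 4 times at Zp3, 5 times at Oosp1, 2 times at Omt2b and 1 time at Bmp15. Both Nlrp5 windows held 2 matches. Of 32851 windows of this length, 72.3% held at least 1 match and 2.1% held 5 or more. The E-box forms CACCTG and CAGGTG, which are each other's reverse complement and a subset of CANNTG, matched 2 times at Oosp1 and 1 time at Zp3. These 2 forms did not match in the windows of Omt2b, Nlrp5 or Bmp15, and 20.2% of all windows held them. The letters TATAAA, searched on both strands, were absent from the Zp3, Omt2b and Oosp1 windows and from 1 of the 2 Nlrp5 windows, and were present in 13.6% of all windows. The 3 genes that fell shared a CANNTG match with most promoters, and no match of the CACCTG or CAGGTG form was common to them.

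Across arrays the medians were close, from 5.07 to 5.32 on the log2 scale, and the middle 50% of all values lay between 4.25 and 6.16. The mTEC identity of the sort was read from 12 measured markers, whose mean level was 8.69 to 9.20 in mTEChi and 7.86 to 8.0 in mTEClo. Epcam lay at 8.41 to 9.29 on all arrays, and the maturation markers Cd80, Cd86 and Cd40 were higher in wild-type mTEChi than mTEClo. These were the 3 of the 12 that passed as higher, and 0 passed as lower (limma). Krt14 went the other way, at 10.57 to 11.68 on mTEChi and 11.87 to 12.10 on mTEClo arrays. Ctla4 differed by 0.16 between the wild-type fractions. The 12 include Aire and the MHC class II genes H2-Aa and H2-Ab1. Since class II defined the fractions, the list mean is no independent check of them. Among mTEChi arrays, Smarca4 was at 6.13 and 6.89 for Brg1+/+ and at 5.88 and 5.44 for Brg1-/-. In mTEChi the level of Aire was 8.04 and 8.80 on the Aire+/+ arrays but 9.01 and 9.73 on those labelled Aire-/-. Where either probe set lies relative to the deleted part is unknown here, and neither can be used to check a genotype. Directions for the Aire line therefore rest on the labels.

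In wild-type mTEChi, 4 of the 8 genes stood above the upper quartile of all values on every array. Oosp1 read 8.81 and 8.54 in Aire+/+ and 8.79 and 7.80 in Brg1+/+ mTEChi. Omt2b read 9.13 and 8.36 in Aire+/+ and 9.46 and 7.40 in Brg1+/+ mTEChi. The coat gene Zp3, whose product forms the zona filaments together with that of Zp2, read 7.66 and 7.42 in Aire+/+ and 7.01 and 7.81 in Brg1+/+ mTEChi. Zp2, whose product sperm bind and which is cleaved after fertilisation, read 7.20 and 7.48 in Aire+/+ and 7.20 and 7.55 in Brg1+/+ mTEChi. Within these 4 genes the wild-type arrays of both lines overlapped.

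The other 4 genes were dimmer. Zp1, whose product links zona filaments to each other, read 5.84 and 6.60 in Aire+/+ and 5.77 and 6.29 in Brg1+/+ mTEChi. Gdf9 lay between 5.47 and 6.12 on the 12 arrays, Nlrp5 between 4.33 and 5.47, and Bmp15 between 3.88 and 4.58. Nlrp5 and Bmp15 thus lay on most or all arrays under the median of all values, 5.22. No detection call was used, so whether these 3 genes lie above background is not known. Intensities of different probe sets depend on the probes, so the order of genes by level is not an order of transcript abundance.

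**Figure D1:**
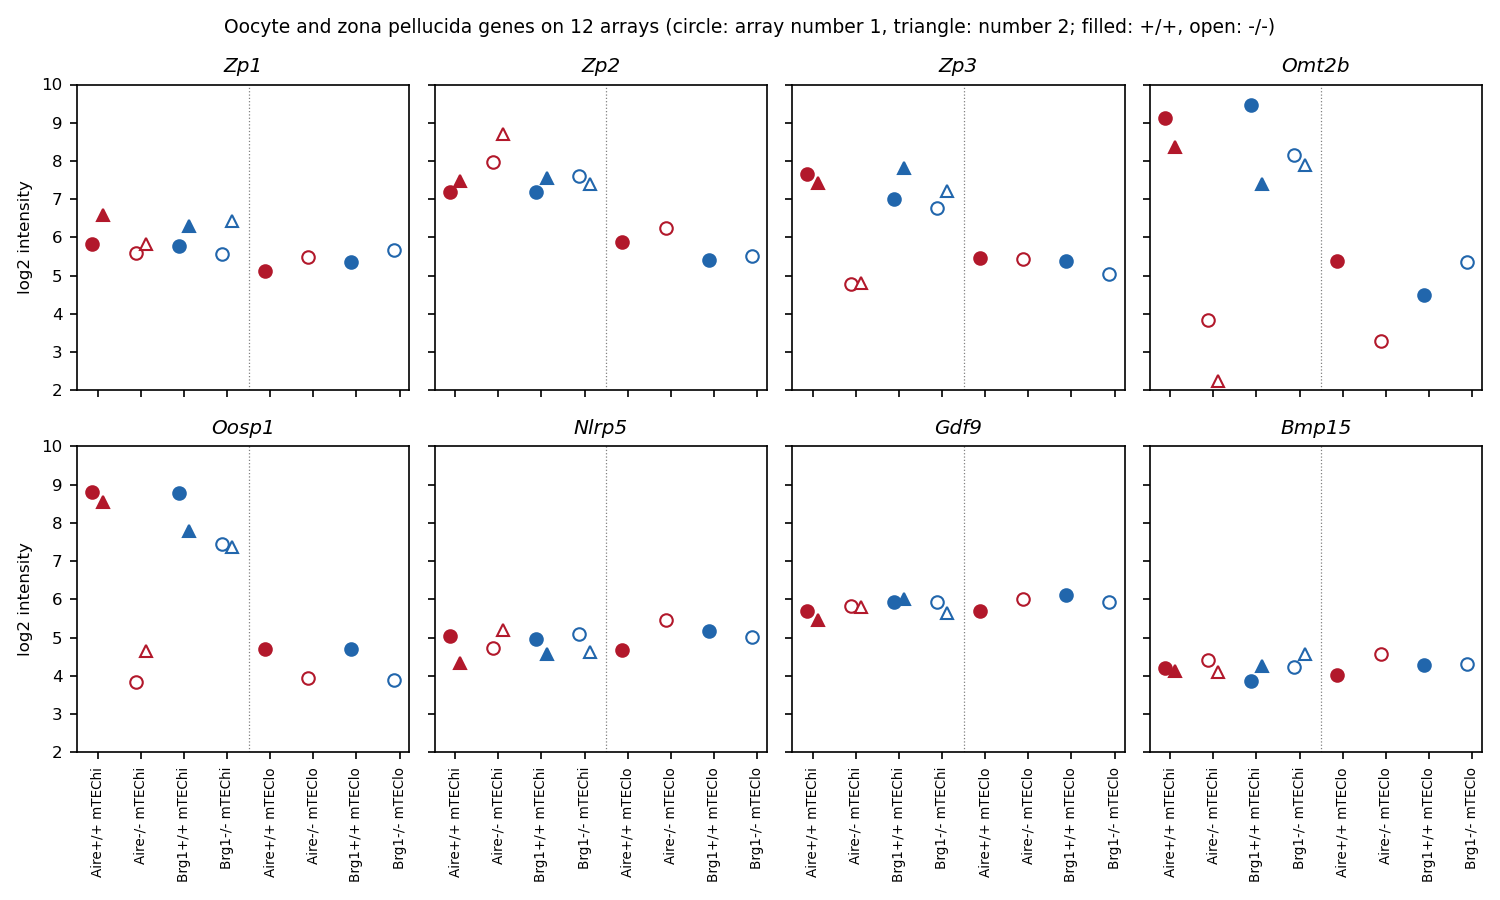
Log2 intensity (vertical axis) of each of the 8 genes on the 12 arrays, by group (horizontal axis), 1 panel per gene and 1 point per array; circles are arrays numbered 1, triangles arrays numbered 2, filled points +/+ and open points -/-, red the Aire line and blue the Brg1 line. Zp3, Omt2b and Oosp1 are low in both arrays labelled Aire-/- mTEChi and on all 4 mTEClo arrays, Zp2 is low on mTEClo alone, and Nlrp5, Gdf9 and Bmp15 are nearly level.

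The first comparison asked which of these genes depended on Aire in mTEChi. Zp3, Omt2b and Oosp1 fell in the arrays labelled Aire-/-, and Zp2 from the same zona coat did not fall. In all, 3 of 8 genes passed the limma test as lower and 0 as higher, where 0.772% of all genes passed as lower. The 8 genes were chosen with earlier results of these data known. Their count beside this share is therefore a description and no independent support. The median difference of the 8 genes was -0.21 against 0.06 for all 22154 genes, so the change lay in some members and not in the set as a whole. In bulk RNA, fewer cells with a transcript and less of it per cell cannot be told apart.

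Omt2b, the oocyte maturation transcript, read 3.85 and 2.25 in the arrays labelled Aire-/- against 9.13 and 8.36 in Aire+/+ mTEChi. Both knockout-labelled arrays lay far under both wild-type arrays, and the array at 2.25 was the lowest of all 12. The difference was -5.70 on the log2 scale (SE 0.74, n = 2 and 2, limma adjusted p = 0.0183). Both low readings lie under the lower quartile of all values, 4.25, where background may set the level, so no fold is given for this gene. Within arrays numbered 1 it was -5.28, and within those numbered 2 it was -6.11.

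Oosp1, the oocyte-secreted protein gene, read 3.84 and 4.65 in the arrays labelled Aire-/- against 8.81 and 8.54 in Aire+/+ mTEChi. The groups did not overlap, and the knockout-labelled arrays lay within or just under the mTEClo range of 3.90 to 4.71. The difference was -4.43 (SE 0.403, n = 2 and 2, limma adjusted p = 0.00392). It was -4.97 within arrays numbered 1 and -3.89 within those numbered 2.

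Zp3 read 4.79 and 4.82 in the arrays labelled Aire-/- against 7.66 and 7.42 in Aire+/+ mTEChi. These were the 2 lowest Zp3 readings of the series, below all 4 mTEClo arrays (5.05 to 5.46). The difference was -2.74 (SE 0.328, n = 2 and 2, limma adjusted p = 0.0136). It was -2.87 within arrays numbered 1 and -2.60 within those numbered 2.

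The calls rested on few arrays. With 1 array of the comparison left out, Oosp1 passed in each of 4 cases (limma adjusted p from 0.0183 to 0.0435). Zp3 passed in none (limma adjusted p 0.113 and 0.0901 without Aire+/+ replicate 1 or 2, 0.105 and 0.111 without Aire-/- replicate 1 or 2), its difference staying between -2.86 and -2.62. Omt2b passed without Aire-/- replicate 1 (limma adjusted p = 0.0428). It did not pass without Aire+/+ replicate 1 (-5.31, limma adjusted p = 0.135), Aire+/+ replicate 2 (-6.08, 0.0921) or Aire-/- replicate 2 (-4.90, 0.123). The number of genes passing over the whole array fell too, from 176 to between 53 and 70.

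Zp2 read 7.97 and 8.71 in the arrays labelled Aire-/- against 7.20 and 7.48 in Aire+/+ mTEChi. Both knockout-labelled arrays lay above both wild-type arrays and were the highest Zp2 readings of the series. The difference, 1.00 (SE 0.318, n = 2 and 2), did not pass after adjustment over all genes (limma adjusted p = 0.506; unadjusted p = 0.0149). It was 0.77 within arrays numbered 1 and 1.23 within those numbered 2.

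The partners of the zona filament were therefore compared on each array. Zp3 minus Zp2 was -3.18 and -3.89 in the arrays labelled Aire-/- against 0.46 and -0.06 in Aire+/+ mTEChi. The difference of -3.74 had an exact two-sided permutation p = 0.333, the smallest that 2 against 2 arrays allow, so this test could not pass. In the Brg1 line the same quantity was -0.85 and -0.17 in Brg1-/- against -0.19 and 0.26 in Brg1+/+ mTEChi, and differed by -0.55 (exact permutation p = 0.667).

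Zp1, the third zona gene, read 5.59 and 5.84 in the arrays labelled Aire-/- against 5.84 and 6.60 in Aire+/+ mTEChi. The groups met at 5.84, and the difference of -0.51 (SE 0.396) did not pass (limma adjusted p = 1). Nlrp5 and the growth factors did not pass either. Gdf9, at 5.83 and 5.81 against 5.70 and 5.47, differed by 0.24 (SE 0.238), Nlrp5 by 0.29 (SE 0.348) and Bmp15 by 0.09 (SE 0.266), each with limma adjusted p = 1.

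Marker genes of the sort were set beside these values. The mean of 12 mTEC markers was 8.93 and 9.20 in the arrays labelled Aire-/- against 8.69 and 8.79 in Aire+/+ mTEChi. The mean of 10 fibroblast and endothelial markers was 5.84 and 5.89 against 5.54 and 5.71, and that of 10 thymocyte markers 5.40 and 5.98 against 5.27 and 6.13. None of the marker genes measured, 12 for mTECs and 37 for other cells, passed in this comparison (limma). With 0.772% of all genes passing as lower, a lack of calls is near the background and says nothing particular of the markers. The mean of 10 dendritic cell, macrophage and B cell markers was 5.66 and 5.69 against 5.65 and 5.69. Single markers differed more than the list means: Lum by 1.39 and Dcn by 0.88 (fibroblasts), Cd68 by 1.05 (macrophages) and Ctla4 by 1.37 (on the mTEC list), with limma adjusted p from 0.319 to 1. The part of these shifts in the result was not tested.

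**Figure D2:**
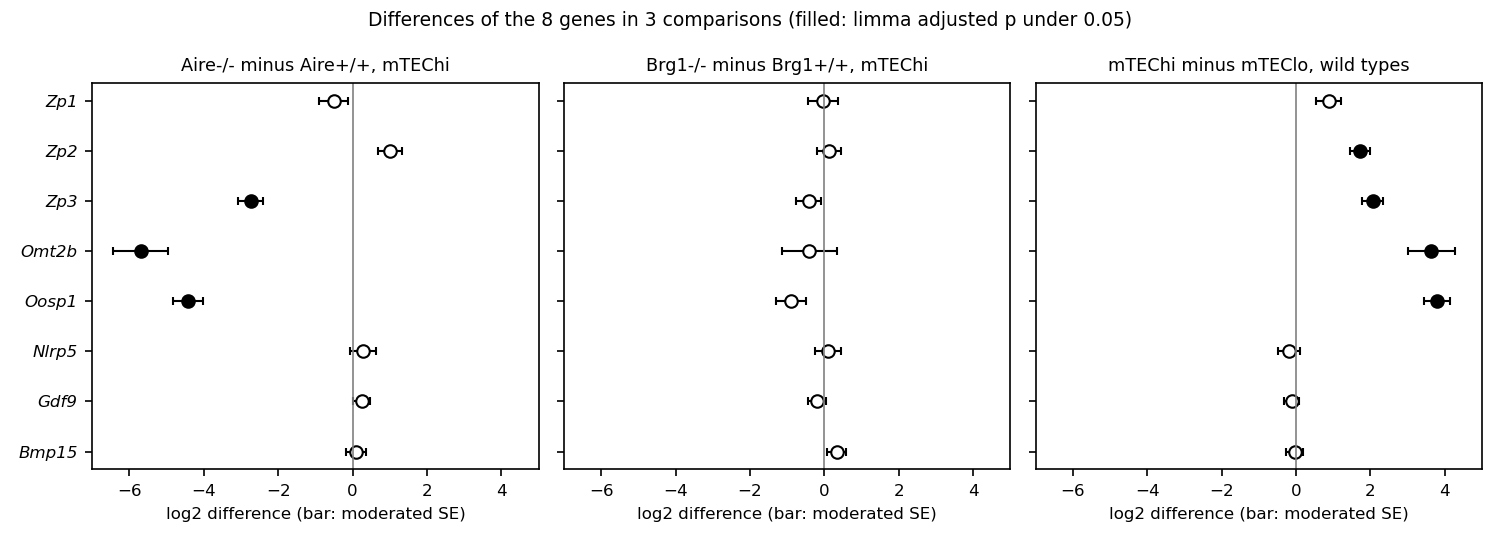
Log2 difference (horizontal axis) of each of the 8 genes (vertical axis) in 3 comparisons; points are limma estimates, bars 1 moderated standard error either way, and filled points passed at adjusted p under 0.05. Zp3, Omt2b and Oosp1 are filled on the left for Aire (-2.74, -5.70 and -4.43), no point is filled for Brg1, and Zp2 joins these 3 on the right for mTEChi minus mTEClo.

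The same comparison was made for Brg1. None of the 8 genes passed in Brg1-/- against Brg1+/+ mTEChi (limma adjusted p = 1 for each), where 0.0% of all genes passed. At an unadjusted limma p under 0.05 there were 301 of 22154 genes, 0 of them among the 8. That is fewer genes than this threshold would give with no effect at all. A count of 0 among the 8 is thus near the background and says nothing particular of them. The median difference of the 8 was -0.12, against 0.00 for all genes.

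Oosp1 had the largest difference of the 8. It read 7.45 and 7.36 in Brg1-/- against 8.79 and 7.80 in Brg1+/+ mTEChi, and the groups did not overlap. The difference of -0.89 (SE 0.403, unadjusted p = 0.0605, limma adjusted p = 1) was -1.34 within arrays numbered 1 and -0.44 within those numbered 2. Omt2b read 8.15 and 7.90 in Brg1-/-, between the Brg1+/+ arrays at 9.46 and 7.40. Its difference of -0.41 (SE 0.74) was -1.31 within number 1 and 0.50 within number 2, so the sign depended on the pair. Zp3 read 6.77 and 7.22 in Brg1-/- against 7.01 and 7.81 in Brg1+/+, an overlap, with a difference of -0.42 (SE 0.328).

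Zp2 read 7.62 and 7.39 and Zp1 5.57 and 6.42 in Brg1-/- mTEChi, each overlapping its wild type. Bmp15 differed by 0.33 (SE 0.266), Gdf9 by -0.20 (SE 0.238), Zp2 by 0.13 (SE 0.318), Nlrp5 by 0.09 (SE 0.348) and Zp1 by -0.04 (SE 0.396). Like Oosp1, Gdf9 did not overlap, at 5.93 and 5.64 in Brg1-/- against 5.94 and 6.02 in Brg1+/+ mTEChi. The mean of 10 thymocyte markers was 5.65 and 6.60 in Brg1-/- and 5.72 and 5.77 in Brg1+/+ mTEChi. Cd3d, a T cell receptor subunit, reached 10.12 in Brg1-/- replicate 2, its highest reading, and the part of this in the values above was not tested.

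Whether the 2 knockouts differed was tested directly, as the Brg1 difference minus the Aire difference. None of the 8 genes passed, where 0.135% of all genes passed as higher. The estimates were 5.29 for Omt2b (SE 1.05, limma adjusted p = 0.219), 3.54 for Oosp1 (SE 0.57, limma adjusted p = 0.113) and 2.32 for Zp3 (SE 0.464, limma adjusted p = 0.229). Each had an unadjusted p under 0.05 (0.00121, 0.000339 and 0.00129), and the other 5 genes did not. With 2 arrays a group, the Aire falls and the smaller Brg1 differences were not shown to differ after adjustment over all genes. This holds for the fit used here, which has no term for the array number. With the number as a replicate block within each line, Omt2b, Oosp1 and Zp3 passed (limma adjusted p = 0.0109, 0.0193 and 0.0176). The labels do not pair the array numbers.

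The fractions of wild-type mTECs were compared next, mTEChi being the fraction in which Aire is mainly found. Oosp1, Omt2b, Zp3 and Zp2 were higher in mTEChi than in mTEClo, and the other 4 genes did not pass. Thus 4 of 8 genes passed as higher and 0 as lower, where 1.93% of all genes passed as higher. This count too is a description, since the 8 genes were chosen with earlier results of these data known. The median difference of the 8 was 1.30, against -0.10 for all genes. These wild-type arrays also served in the comparisons above, and each mTEClo group had 1 array that was assumed to vary like mTEChi.

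Oosp1 read 4.70 in Aire+/+ and 4.71 in Brg1+/+ mTEClo, against 7.80 to 8.81 on the 4 wild-type mTEChi arrays. Its difference was 3.78 (SE 0.349, n = 4 and 2, limma adjusted p = 0.00348). Omt2b read 5.39 and 4.50 in mTEClo against 7.40 to 9.46 in mTEChi, a difference of 3.64 (SE 0.64, limma adjusted p = 0.0316). Neither gene overlapped between the fractions, and Omt2b spread more than Oosp1 within mTEChi.

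Zp3 read 5.46 and 5.38 in wild-type mTEClo against 7.01 to 7.81 in mTEChi, a difference of 2.06 (SE 0.284, limma adjusted p = 0.013). Zp2 read 5.87 and 5.40 against 7.20 to 7.55, a difference of 1.72 (SE 0.275, limma adjusted p = 0.0213). Both zona genes were thus higher in mTEChi, although Zp3 fell and Zp2 did not in the arrays labelled Aire-/-. Zp1 read 5.12 and 5.37 against 5.77 to 6.60, a difference of 0.88 (SE 0.343) that did not pass (limma adjusted p = 0.333).

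Nlrp5 differed by -0.19 (SE 0.301), Gdf9 by -0.12 (SE 0.206) and Bmp15 by -0.03 (SE 0.231), and their arrays overlapped between fractions. With 1 line alone, Oosp1 passed in each line and the other 3 in neither (limma adjusted p from 0.0905 to 0.232), at like sizes (1.47 and 1.98 for Zp2, 2.08 and 2.03 for Zp3, 3.36 and 3.93 for Omt2b). Without Aire+/+ replicate 1 or 2, Omt2b did not pass (limma adjusted p = 0.0829 and 0.0646). Zp2 did not pass without Aire+/+ replicate 1 or 2 or Brg1+/+ replicate 2 (limma adjusted p = 0.0544, 0.074 and 0.0551). The mean of 10 thymocyte markers was 5.27 to 6.60 over all mTEChi arrays and 5.01 to 5.17 in mTEClo, and that of 10 fibroblast and endothelial markers 5.47 to 5.89 and 5.83 to 6.17. That of 10 dendritic cell, macrophage and B cell markers was 5.63 to 5.76 and 5.31 to 5.41, with no overlap. The mean of 7 cortical thymic epithelial markers overlapped, at 6.26 to 6.54 and 6.21 to 6.53. Among these 7, Ccl25 was higher in wild-type mTEChi by 1.61 (limma adjusted p = 0.0311). Ctsl differed by -1.42 and did not pass (limma adjusted p = 0.0524). The part of these in the differences was not tested.

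Across the 4 genotypes the step between fractions was read for each gene as the mTEChi mean minus the lone mTEClo array, with no test. For Zp2 it was 1.47 in Aire+/+, 2.09 in Aire-/-, 1.98 in Brg1+/+ and 1.99 in Brg1-/-, so the step stood in every genotype. For Zp3 it was 2.08 in Aire+/+, 2.03 in Brg1+/+ and 1.95 in Brg1-/-, but -0.63 in the arrays labelled Aire-/-. Omt2b gave 3.36, 3.93, 2.66 and, in Aire-/-, -0.24, and Oosp1 gave 3.98, 3.59, 3.51 and, in Aire-/-, 0.31, in the same order of genotypes. For these 3 genes the mTEChi arrays labelled Aire-/- stood close to or under mTEClo.

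In mTEClo, where each knockout and wild type had 1 array, no test was made. Omt2b read 3.29 in Aire-/- and 5.39 in Aire+/+, and 5.37 in Brg1-/- and 4.50 in Brg1+/+, so it differed in opposite directions. Oosp1 read 3.94 in Aire-/- and 4.70 in Aire+/+, and 3.90 in Brg1-/- and 4.71 in Brg1+/+. Zp3 read 5.43 in Aire-/- and 5.46 in Aire+/+, and 5.05 in Brg1-/- and 5.38 in Brg1+/+. Zp2 read 6.25 in Aire-/- and 5.87 in Aire+/+, and 5.52 in Brg1-/- and 5.40 in Brg1+/+.

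The order of the groups can be read from these levels. For Zp3, Omt2b and Oosp1, the 3 mTEChi groups other than Aire-/- lay above all mTEClo arrays. The Brg1-/- arrays lay within the range of the 4 wild-type arrays for Omt2b, 1 of them lay under it for Zp3, and both lay under it for Oosp1. For Zp2 the arrays labelled Aire-/- mTEChi came first, then the other 6 mTEChi arrays, which overlapped, then mTEClo. Zp1 lay at 5.57 to 6.60 in mTEChi and 5.12 to 5.68 in mTEClo and had no clear order of groups.

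The genes next to each of the called members on the chromosome were examined, up to 3 measured genes on each side in the RefSeq gene order. Next to Oosp1 on chromosome 19 lie its relatives Oosp2 and Oosp3 and members of the Ms4a membrane protein family. Oosp2 read 4.31 and 4.83 in the arrays labelled Aire-/- against 7.41 and 7.57 in Aire+/+ mTEChi, with no overlap. It fell by 2.92 (SE 0.397, limma adjusted p = 0.0232) and was higher in wild-type mTEChi than mTEClo by 3.79 (SE 0.344, limma adjusted p = 0.00339). Oosp3, on the other side, differed by -0.19 in the Aire comparison (limma adjusted p = 1) and lay between 3.90 and 5.13 on the 12 arrays. Ms4a3 (-1.08), Ms4a2 (-0.68), Cblif (-0.42) and Mrpl16 (0.19) did not pass. Whether Oosp3 differed from its relatives was not tested.

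Omt2b on chromosome 9 lies beside Omt2a, its named relative. Omt2a read 4.00 and 4.71 in the arrays labelled Aire-/- against 4.87 and 5.65 in Aire+/+ mTEChi, a difference of -0.91 (SE 0.376) that did not pass (limma adjusted p = 0.864). Probe sequences were not analysed here, so how far the probe sets of this pair read each other is uncertain. On the other side, Dppa5a (0.09) and the oocyte gene Ooep (-0.28) did not pass, nor did Gm10639 (-1.03), Gsta4 (-0.89) or Ddx43 (0.24). None of the 6 genes around Zp3 on chromosome 5 passed in the Aire comparison, with differences from -1.0 (Upk3bl) to 0.34 (Dtx2). Between wild-type fractions Upk3bl, a relative of the uroplakin gene Upk3b beside it, was higher in mTEChi by 1.15 (limma adjusted p = 0.0356), in the direction of Zp3. That call was lost without any 1 of the 4 wild-type mTEChi arrays (limma adjusted p from 0.072 to 0.108). Of the 6 genes around Zp2 on chromosome 7, none passed in the Aire comparison or between fractions, with Aire differences from -0.07 to 0.43. Over all genes, 0.772% passed as lower for Aire and 1.93% as higher between fractions. Against these shares a lack of calls among 6 neighbours is near the background and says nothing particular of any of these regions.

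**Figure D3:**
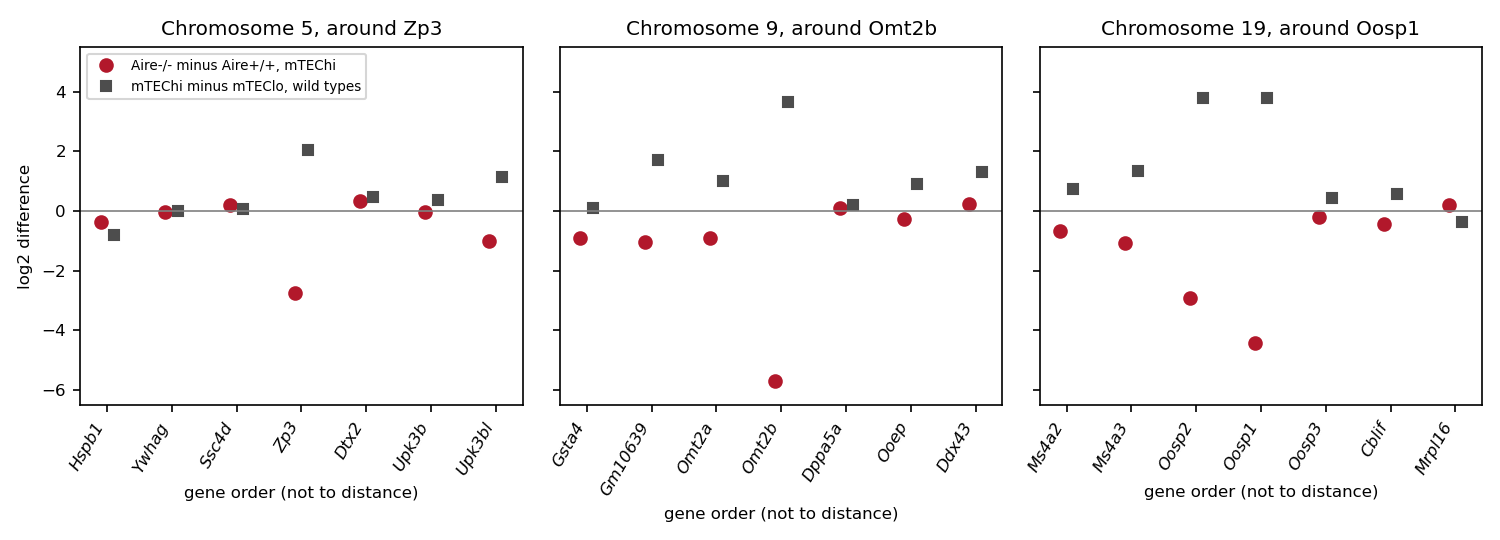
Log2 difference (vertical axis) of Zp3, Omt2b, Oosp1 and up to 3 measured genes on each side, in gene order and not to distance (horizontal axis), for Aire-/- minus Aire+/+ mTEChi (red circles) and wild-type mTEChi minus mTEClo (grey squares). In the Aire comparison no neighbour of Zp3 or Omt2b passed, and Oosp1 (-4.43 and 3.78) has Oosp2 (-2.92 and 3.79) beside it; between fractions Upk3bl beside Zp3 passed as well (1.15).

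Genes of the egg and its follicle, sperm proteins that meet the zona and other proteins with a zona pellucida domain were counted by role in 7 lists, of which 92 genes were measured. The lists, like the 8 genes, were chosen with earlier results of these data known, so their counts are a description. In the Aire comparison 2 of the 92 fell and 0 rose, where 0.772% of all genes fell. In the Brg1 comparison none passed, where 0.0% of all genes did. Against these shares, and 1.93% higher between fractions, a count of 0 in a list of 6 to 26 genes is near the background and says nothing particular of that list. Both genes that fell, Oosp2 and Oas1e, were among 26 measured oocyte-restricted genes, whose median difference was -0.16 against 0.06 for all genes. Oas1e, an oocyte-expressed gene of the oligoadenylate synthetase family, read 5.59 and 3.74 in the arrays labelled Aire-/- against 7.97 and 9.29 in Aire+/+ mTEChi. It fell by 3.97 (SE 0.633, limma adjusted p = 0.0444), its knockout-labelled arrays far apart but both under the wild type. The Oas1 genes are close relatives, so its probe set may read several of them. On the same list, Oas1d differed by -2.13 and Oas1c by 0.09 in the Aire comparison, and neither passed.

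Neither call was firm. Without 1 array of the comparison, Oosp2 passed in none of 4 cases (limma adjusted p from 0.105 to 0.175). Oas1e passed without Aire-/- replicate 1 (limma adjusted p = 0.0305) and not without Aire+/+ replicate 1 (0.0929), Aire+/+ replicate 2 (0.238) or Aire-/- replicate 2 (0.163). The count of 2 became 0, 0, 1 and 0 without Aire+/+ replicate 1, Aire+/+ replicate 2, Aire-/- replicate 1 and Aire-/- replicate 2.

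Zar1, a maternal RNA-binding protein of the oocyte-to-embryo transition, read 11.68 and 11.77 in the arrays labelled Aire-/- against 10.77 and 10.97 in Aire+/+ mTEChi, a difference of 0.86 (SE 0.26) that did not pass (limma adjusted p = 0.452). It was higher in wild-type mTEChi than mTEClo by 1.54 (SE 0.225, limma adjusted p = 0.0157), a call lost without Aire+/+ replicate 2 (limma adjusted p = 0.0582). With 1 line alone Zar1 did not pass either (1.59 in the Aire line, 1.49 in the Brg1 line). Its mTEClo arrays read 9.28, 9.02 and 9.26, and that of Brg1-/- read 6.61. Like Zp2, Zar1 was higher in mTEChi and its arrays labelled Aire-/- lay above the wild type.

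The oocyte transcription factors were dim and did not pass in any comparison. Figla, the activator of the zona genes, was at 5.28 and 5.05 on Aire+/+ mTEChi arrays and at 4.32 and 4.74 on those labelled Aire-/-. The difference was -0.64 (SE 0.419, limma adjusted p = 1). Between wild-type fractions it differed by 0.13 (SE 0.363). The mean of all 6 factors, which include Nobox, Sohlh1 and Lhx8, was 4.69 to 5.13 on mTEChi arrays and 4.70 to 5.07 in mTEClo.

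Of 15 genes of the subcortical maternal complex and oocyte Nlrp family, the partners and relatives of Nlrp5, 0 passed in either knockout or between fractions. The largest differences in the Aire comparison were -1.87 for Nlrp4e (SE 0.757, limma adjusted p = 0.837) and -1.09 for Khdc3 (SE 0.674, limma adjusted p = 1), with a list median of -0.23. Of 14 receptors, Smads and modulators of Gdf9 and Bmp15 signalling, 0 passed in either knockout. Fst, the activin-binding follistatin, fell in wild-type mTEChi relative to mTEClo, with a log2 difference of -2.43 (SE 0.275, limma adjusted p = 0.00757). It did not pass in the Brg1 line alone (-2.06) but did in the Aire line alone (-2.8).

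Of 9 granulosa and theca cell genes, 0 passed in either knockout. Cyp17a1, a steroid hydroxylase of theca cells, read 6.95 to 7.62 in wild-type mTEChi and 4.56 and 4.47 in wild-type mTEClo. It was higher in mTEChi by 2.69 (SE 0.421, limma adjusted p = 0.0199), which was lost without Aire+/+ replicate 1 or Brg1+/+ replicate 1 (limma adjusted p = 0.0573 and 0.0544). With 1 line alone Cyp17a1 did not pass either (2.73 in the Aire line, 2.66 in the Brg1 line). In the Aire comparison it differed by -0.21 (limma adjusted p = 1). Of 10 sperm proteins of zona binding and fusion, 0 passed in any comparison, and the largest Aire difference was 0.39 (Zpbp).

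Of 12 other proteins with a zona pellucida domain, none passed. Gp2, an intestinal and pancreatic membrane protein, read 6.99 and 8.16 in the arrays labelled Aire-/- against 8.93 and 9.81 in Aire+/+ mTEChi (difference -1.80, SE 0.671, limma adjusted p = 0.723). Cuzd1 differed by -0.93 (SE 0.279, limma adjusted p = 0.441).

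**Figure D4:**
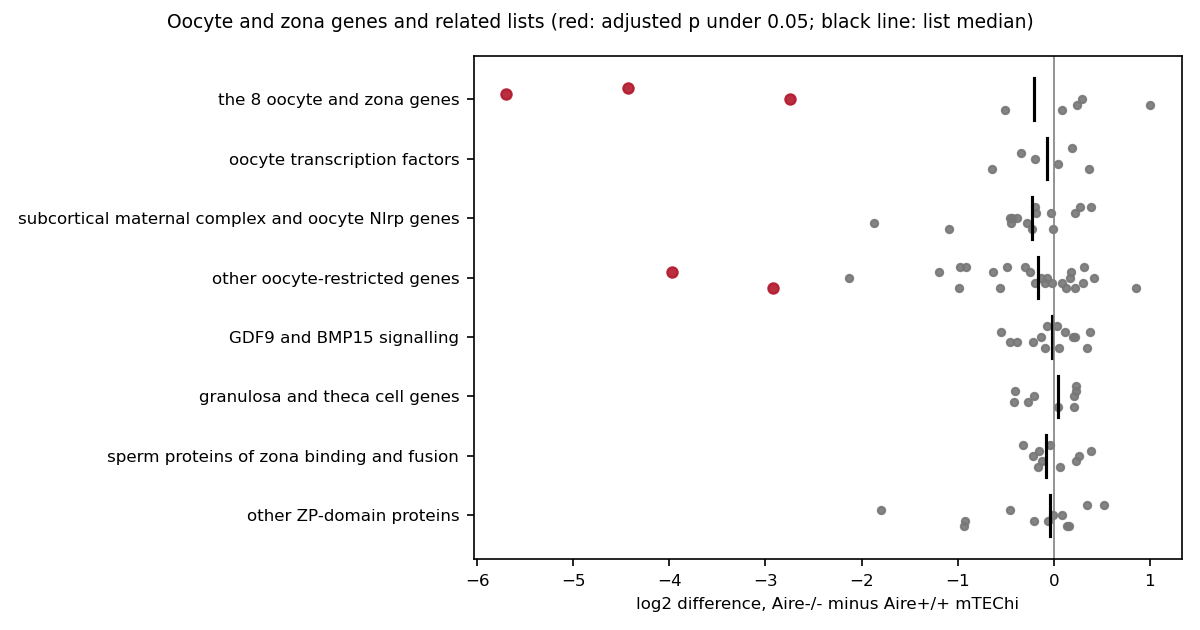
Log2 difference between Aire-/- and Aire+/+ mTEChi (horizontal axis) for each measured gene of the 8 oocyte and zona genes and of 7 related lists (vertical axis, 1 row per list; points are shifted up or down only for visibility); red points passed at limma adjusted p under 0.05 and black lines are list medians. Red points occur for 3 of the 8 genes and for Oosp2 and Oas1e, and the list medians lie close to 0.

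The genes most like each called member were found by Pearson correlation over the 12 arrays. These arrays are the ones compared above and fall into groups by genotype and fraction, so the values are a description. Closest to Zp3 were Nms (r = 0.975), Obp2a (0.968), Bpifa5 (0.967), Cst10 (0.966) and Dcpp3 (0.962), and each of these 5 fell in the Aire comparison. Closest to Oosp1 were Hbb-bh1 (0.987), Cst10 (0.987), Mcpt2 (0.981), Nppa (0.981) and Defa24 (0.976). Closest to Omt2b were Spink7 (0.984), Nts (0.975), Clps (0.972), Crygc (0.97) and Xcl1 (0.969). Of these, Nppa is known from heart, Hbb-bh1 from embryonic blood, Defa24 from gut, Clps from pancreas, Crygc from lens and Obp2a from nasal glands. The 5 genes closest to Oosp1 and 3 of the 5 closest to Omt2b fell in the Aire comparison (limma), where 0.772% of all genes fell. Spink7 and Clps did not pass. The members were taken for having fallen, and their closest genes were picked on the same arrays. These counts, and that for Zp3, were therefore largely set in advance and lend no support.

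Within the set, Zp3 and Oosp1 correlated at r = 0.946, Omt2b and Oosp1 at 0.921 and Zp3 and Omt2b at 0.892. Ranked among 22153 genes, Oosp1 was number 26 and Omt2b number 156 by likeness to Zp3. Zp1 followed Zp3 at 0.663 (rank 952) and Zp2 at 0.253 (rank 4496). Gdf9 (-0.309), Bmp15 (-0.143) and Nlrp5 (-0.466) were unlike Zp3.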

How the data were processed

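RNA from sorted mTECs was read on 12 Affymetrix arrays. The authors deposited 1 linear intensity per probe set and array, 33732 in all, and Affymetrix Expression Console, Transcriptome Analysis Console and RMA are named, without versions or roles, per the submitters' processing notes. The deposited values fall on log2 steps of 0.01. Here log2 was taken with no pseudocount and no normalization was added, and a low level that holds background compresses a fold change. Probe sets were named from the platform annotation (23491 with 1 symbol, 1811 with several, 8430 with none), and the brightest per gene gave 22154 genes, of which 21968 matched the RefSeq table of GRCm38.p6 by Entrez identifier. That table was used for gene order only, and promoter sequences are RefSeq's.

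Groups came from the labels. One limma 3.58.1 model (R 4.3.3) of 8 group means over all 12 arrays gave SE and two-sided p-values, adjusted by Benjamini-Hochberg over all 22154 genes, passing under 0.05. It has 4 residual and 3.46 prior degrees of freedom. Knockout was compared with wild type in mTEChi for each line, as was the difference of these, and mTEChi with mTEClo over both wild types. The fit of the Aire comparison alone was tried on simulated arrays with known changes and noise independent between arrays.

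The genes and lists were chosen with earlier results of these data known. Named are the 8 genes, list members that pass or otherwise up to 2 with the largest Aire difference, the 5 genes most correlated with each member that fell, and up to 3 neighbours a side. Oas1c and Oas1d are named as relatives of Oas1e. The correlated genes leave out predicted genes, clone names, small RNAs and olfactory and vomeronasal receptors. Alternatives were a replicate block, median centring, quantile normalization, a filter on dim genes, probe set means, a trended prior, mTEChi arrays alone, each wild-type line alone and each array left out.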

Additional observations from a re-analysis of the deposited data

How the results depend on the processing

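The 7 differences of the 8 genes that passed kept their direction in all 85 alternatives tried, and in 19 of these they no longer passed. Centring, quantile normalization, the filter on dim genes, probe set means, the trended prior and, where run, the mTEChi arrays alone cost none of the 7 calls. Array numbers pair no samples per the labels. Deviations from group means nevertheless correlated across genes between same-numbered arrays (r from 0.552 to 0.657 over the 6 pairs of mTEChi groups). With the number as a replicate block within each line, the genes passing rose from 176 to 531 for Aire, from 30 to 201 for Brg1 minus Aire and from 567 to 1534 for mTEChi minus mTEClo. With that block, 3 of the 8 genes passed for Brg1 minus Aire in place of 0 (Zp3, Omt2b and Oosp1, limma adjusted p = 0.0176, 0.0109 and 0.0193), related-list genes rose from 2 to 5 for Aire and from 4 to 11 for mTEChi minus mTEClo, and no other call of the 8 genes changed. For mTEChi minus mTEClo, the Aire line alone gave 1 of the 8 genes, 2 related genes and 130 genes, and the Brg1 line alone 1, 1 and 80. Wild-type arrays numbered 1 alone, an alternative chosen after seeing the data, gave 284 genes, and Zp2 did not pass there (1.57, limma adjusted p = 0.133).

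Leaving out 1 array gave 1 to 2 of the 8 genes, 0 to 1 related genes and 53 to 70 genes for Aire, 0 to 1 genes for Brg1 and 4 to 28 genes for Brg1 minus Aire. For mTEChi minus mTEClo it gave 2 to 4 of the 8 genes and 307 to 470 genes. Signs changed only among differences that did not pass. With 1 array left out, Nlrp5 ranged from -0.07 to 0.64 and Bmp15 from -0.06 to 0.24 for Aire. For Brg1, Zp1 ranged from -0.46 to 0.39, Zp2 from -0.05 to 0.31, Omt2b from -1.44 to 0.63 and Nlrp5 from -0.15 to 0.32. For Brg1 minus Aire, Nlrp5 ranged from -0.56 to 0.16, and for mTEChi minus mTEClo Bmp15 from -0.13 to 0.07. Quantile normalization gave 0.00 for Zp1 in the Brg1 comparison. For mTEChi minus mTEClo, Bmp15 was 0.04 after centring, 0.01 after quantile normalization and 0.15 in the Aire line, and Nlrp5 was 0.02 in the Aire line and 0.08 on arrays numbered 1. Fewer arrays leave fewer degrees of freedom for the p-values. The cause of the changes in the estimates and their signs was not tested.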
